A study of Homo sapiens with 8 samples.

Results

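Bone morphogenetic protein (BMP) and growth differentiation factor (GDF) ligands and their antagonists were followed in normal IMR90 fibroblasts, a line of human embryonic lung primary fibroblasts, exposed to the secretome of cells entering oncogene-induced senescence. The set holds 9 genes taken by symbol from the count table, which lists 27696 genes. The 5 ligands are BMP2, BMP4, BMP6, GDF5 and GDF6, and the 4 antagonists are GREM1, BAMBI, NOG and CHRDL1. Of these, 8 passed the filter on low counts that left 13798 genes for testing, and CHRDL1 did not. The recipients spent 3 days in conditioned medium that IMR90-ER:RAS fibroblasts, which carry an inducible ER:RAS cassette, had given off at day 0, 4, 7 or 10 of 4-hydroxytamoxifen (4-OHT) treatment, and the resulting cells are called D0, D4, D7 and D10. All 4 groups thus received medium from the same ER:RAS line, collected without serum and then supplemented with fetal bovine serum, and the D0 group is the control. The cells are of a single fibroblast line. Each group has 2 libraries from 2 independent experiments, 8 in all, of poly(A) RNA, with 11708193 to 13395912 counted reads.

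BMPs and GDFs are secreted dimers of the TGF-β superfamily. They bind type I and type II serine/threonine kinase receptors, which phosphorylate SMAD1, SMAD5 and SMAD9, and these enter the nucleus with SMAD4 and switch on targets such as the ID genes. Extracellular antagonists of the gremlin, noggin and chordin families trap the ligand before it reaches a receptor, whereas BAMBI is a transmembrane pseudoreceptor without a kinase domain. In fibroblasts the BMP branch is known as a counterweight to TGF-β, which drives the myofibroblast programme.

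The fibroblast identity of the libraries was checked first. All 8 fibroblast markers examined (COL1A1, COL1A2, COL3A1, PDGFRA, PDGFRB, THY1, VIM and DCN) were detected, with a summed level of 30080 to 46504 CPM (read counts scaled to a common library size by edgeR's TMM factors) in 7 libraries. The library of D10 replicate 2 stood apart, at 9788 CPM. Epithelial markers summed to at most 0.819 CPM, immune markers to at most 1.03 CPM and endothelial markers to at most 3.74 CPM in any library. Smooth muscle or pericyte markers summed to between 4.32 and 14.3 CPM, the highest in D10 replicate 2. Chondrocyte or osteoblast markers summed to 57.3 and 58.6 CPM at D0 and to between 80.0 and 151.7 CPM in the 6 later libraries. This sum came from SOX9 and RUNX2, whereas the other 4 of that list (ACAN, COL2A1, SP7 and BGLAP) had at most 1 count in a library. The part of these markers in the members' changes was not tested. D10 replicate 2 also held the highest BMP2 and GREM1 and the lowest BMP4, GDF5 and GDF6 of all libraries, and the part of its lower fibroblast markers in these values was not tested. D10 values of the members called in either fit are therefore given with and without it. The RNA is from bulk cultures, in which fewer cells expressing a gene and less RNA per cell cannot be told apart.

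Promoters were taken from RefSeq (GRCh38.p14) for members whose RNA changed, to show what their 5′ sequences hold. The table has a promoter for 6 of the 9 members, and BMP2, GDF6 and NOG have no entry. Shown are the start site nearest to an annotated one in GENCODE 29 for BMP4 (chr14:53953456-53953645, minus strand), GDF5 (chr20:35454750-35454999, minus strand) and BAMBI (chr10:28677271-28677341, plus strand), whose RNA fell with the day of the medium, and for GREM1 (chr15:32717754-32717973, plus strand), whose RNA was highest at D10. Each line runs 5′ to 3′ from 250 bases before the start and stops where an exon of the gene begins. Capitals mark the GC box GGGCGG, the GC-rich BMP SMAD motif GGCGCC, the SMAD box CAGAC, the CCAAT box CCAAT, the TATA box TATAAA, the AP-1 site TGANTCA and the NF-κB consensus, on either strand.
BMP4: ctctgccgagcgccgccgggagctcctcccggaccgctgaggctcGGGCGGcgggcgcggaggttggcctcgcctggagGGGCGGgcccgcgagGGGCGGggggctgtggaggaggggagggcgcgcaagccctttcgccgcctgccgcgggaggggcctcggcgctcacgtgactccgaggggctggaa
GDF5: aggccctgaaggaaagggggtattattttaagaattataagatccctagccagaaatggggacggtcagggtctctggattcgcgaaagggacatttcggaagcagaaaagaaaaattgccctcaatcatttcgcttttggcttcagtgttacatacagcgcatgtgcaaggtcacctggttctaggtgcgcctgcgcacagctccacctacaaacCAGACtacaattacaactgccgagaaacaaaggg
BAMBI: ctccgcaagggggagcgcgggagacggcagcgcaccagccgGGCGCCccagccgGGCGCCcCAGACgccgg
GREM1: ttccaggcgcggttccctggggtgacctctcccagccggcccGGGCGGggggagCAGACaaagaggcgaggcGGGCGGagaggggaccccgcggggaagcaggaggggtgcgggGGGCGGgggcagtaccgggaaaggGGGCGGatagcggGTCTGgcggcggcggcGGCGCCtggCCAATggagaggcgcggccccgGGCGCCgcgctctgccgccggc

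Over the whole 250 bases before the start, the BAMBI promoter held 3 copies of the GC-rich SMAD motif, which 16.4% of all 35116 promoters of that length hold at least once, and 2 SMAD boxes, a motif found in 38.0% of them. The GREM1 promoter held 2 copies of the GC-rich motif and 2 SMAD boxes. The BMP4 promoter had 1 SMAD box, which lies past the stretch shown, and 3 GC boxes (42.6% of all promoters), and GDF5 had 1 SMAD box. BAMBI and GREM1 each also had 4 GC boxes and 1 CCAAT box, against 32.0% of promoters with a CCAAT box. For BAMBI, 179 of the 250 bases lie in an exon of the gene itself, and its GC boxes and CCAAT box all lie there, past the stretch shown. That stretch held 2 of its 3 GC-rich motifs and 1 of its 2 SMAD boxes. None of these 4 windows had a TATA box (10.7%), an AP-1 site (6.57%) or the NF-κB consensus (9.96%). RefSeq also lists other start sites for BMP4 and GREM1, which are not shown. The window of the other GREM1 start held the NF-κB consensus, as did that of BMP6. The GC-rich SMAD motif can overlap a GC box by some bases. The G and C content was 81.2% for BAMBI, 76.8% for GREM1, 70.4% for BMP4 and 47.6% for GDF5, against a median of 58.0% over all promoters. A match describes the letters in the window and is not evidence of a bound site.

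At D0 the ligand pool was made mainly of BMP4 RNA. Per kilobase of exon, so that genes can be compared, BMP4 stood at 56.4 ± 8.04 CPM per kb (mean ± SD, n = 2), followed by the antagonists BAMBI at 23.1 ± 6.32 and GREM1 at 15.7 ± 7.96, whose libraries overlapped. GDF6 came next at 10.3 ± 1.84, within the range of GREM1, and then NOG at 6.11 ± 0.380. BMP2 at 3.47 ± 0.972 and GDF5 at 3.36 ± 1.12 could not be separated, and BMP6 was lowest of the tested members at 0.824 ± 0.240. CHRDL1, a chordin-like secreted antagonist (chrX:110673856-110795819), had between 0 and 3 counts in every library, at or under the floor of 3 counts, which equals 0.224 to 0.256 CPM, so no fold is given for it. By D10 the order had turned, with GREM1 at 72.8 ± 59.4 CPM per kb and BMP2 at 60.0 ± 35.7 on top, BMP4 at 18.3 ± 8.02, NOG at 6.17 ± 1.99, BAMBI at 5.90 ± 0.741, GDF6 at 3.27 ± 2.60, BMP6 at 1.87 ± 0.0346 and GDF5 at 0.567 ± 0.0860. GREM1 and BMP2 overlapped at D10, as did NOG and BAMBI, NOG and GDF6, and GDF6 and BMP6.

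**Figure D1:**
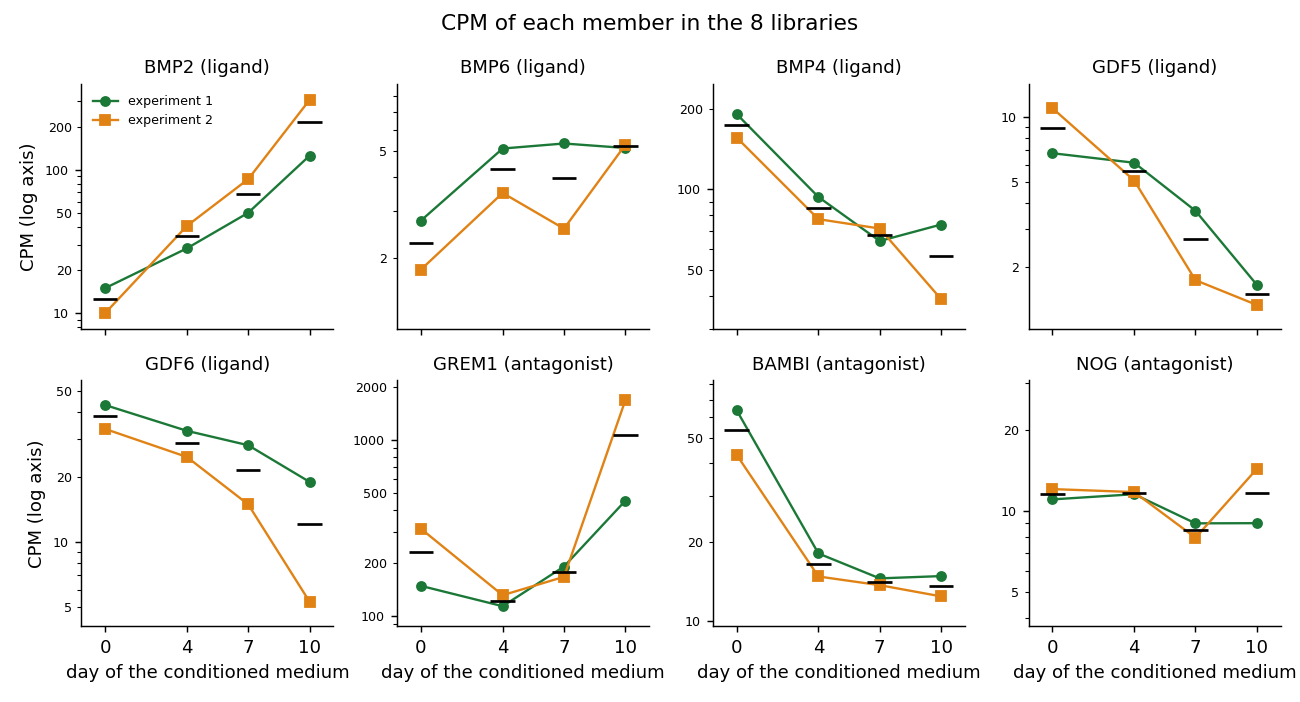
CPM (log axis, a different range in each panel) of the 8 tested members against the day of 4-OHT at which the conditioned medium was collected, with one line for each of the 2 experiments and a black bar for the mean of both. BMP2 climbs from 10.0 and 15.0 CPM to 125 and 307 CPM, BAMBI drops by D4 and stays low, and GREM1 is lower at D4 than at D0 and highest at D10.

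BMP2 rose over the time course and was higher at each later day. BMP2 (chr20:6767664-6780280, plus strand) encodes a ligand best known for inducing bone and cartilage. In experiment 1 it measured 15.0, 28.4, 50.2 and 125 CPM at D0, D4, D7 and D10. In experiment 2 the same days gave 10.0, 40.7, 86.2 and 307 CPM. Both experiments climbed at each day, and no D4, D7 or D10 library overlapped those of D0. The log2 fold change at D10 was 4.11 ± 0.52 (SE), a 17.3-fold difference (8.30-fold in experiment 1 and 30.2-fold in experiment 2), with a Benjamini-Hochberg adjusted p of 0.0379 in edgeR's quasi-likelihood test. The slope over all 4 days was 0.40 ± 0.04 log2 units per day (edgeR adjusted p = 0.00475). At D7 the log2 fold change of 2.45 ± 0.49 had an edgeR adjusted p of 0.307, and 0.0261 with the experiment as a block. At D4 it was 1.47 ± 0.48 (edgeR adjusted p = 1.00, and 0.217 with the block).

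The D10 call of BMP2 depended on the libraries in the fit. Without D10 replicate 2 the D10 change fitted was 3.33 (edgeR adjusted p = 0.0818), and without D10 replicate 1 it was 4.65 (adjusted p = 0.00827). Leaving out any other single library gave 3.85 to 4.44 and ended the call, the highest adjusted p being 0.255 without D0 replicate 2. With the experiment as a block, the edgeR adjusted p was 0.00118, and BMP2 was called at D10 in 8 of 8 fits that left out a library. Its slope was called in 8 of 8 such fits with and without the block.

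BMP6 (chr6:7726797-7881422, plus strand), the ligand known as the iron-sensing inducer of hepcidin, was a minor transcript with at most 70 counts. Its levels were 2.76, 5.12, 5.34 and 5.14 CPM in experiment 1 and 1.82, 3.50, 2.58 and 5.28 CPM in experiment 2. The D4 and D10 libraries lay above both D0 libraries and the D7 libraries overlapped them. The log2 fold change at D10 was 1.19 ± 0.45, which did not pass the test (edgeR adjusted p = 0.499, and 0.0764 with the block).

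BMP4, the most abundant ligand at D0, fell as BMP2 rose. BMP4 (chr14:53949736-53958761, minus strand) is the closest relative of BMP2 and uses the same receptors. It went from 191 CPM at D0 to 93.6, 64.0 and 73.8 CPM at D4, D7 and D10 in experiment 1. In experiment 2 it went from 156 CPM to 77.3, 71.3 and 38.8 CPM. All 6 libraries of later medium were under both D0 libraries, and the largest part of the drop was already present at D4. The slope was −0.16 ± 0.03 log2 units per day (edgeR adjusted p = 0.0282, and 0.00426 with the block). Its log2 fold change against D0 was −1.02 ± 0.32 for D4 (edgeR adjusted p = 1.00), −1.36 ± 0.32 for D7 (0.384) and −1.63 ± 0.32 for D10 (0.0933). With the experiment as a block these adjusted p-values were 0.139, 0.0344 and 0.00513, so BMP4 was called at D7 and D10 in that fit. Without D10 replicate 2 the D10 change was −1.24 (adjusted p = 0.310) and −1.30 with the block (edgeR adjusted p = 0.000901). The blocked D10 call was lost without D0 replicate 2 (adjusted p = 0.0554).

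The slope of BMP4 without the block lost its call when D0 replicate 1 (edgeR adjusted p = 0.141), D0 replicate 2 (0.101), D7 replicate 1 (0.0537), D7 replicate 2 (0.0541) or D10 replicate 2 (0.0661) was left out. With the block it was called in 8 of 8 such fits.

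GDF5 (chr20:35433347-35454746, minus strand), a ligand of joint formation that prefers the receptor BMPR1B, also fell. Its levels were 6.78, 6.12, 3.66 and 1.66 CPM in experiment 1 and 11.0, 5.06, 1.74 and 1.34 CPM in experiment 2, with counts of 81 and 151 at D0 and of 21 and 17 at D10. Every later library was below both D0 libraries, and each later day was lower in both experiments. The slope was −0.26 ± 0.04 log2 units per day (edgeR adjusted p = 0.0160). At D10 the log2 fold change of −2.56 ± 0.46 had an edgeR adjusted p of 0.0779, and 0.0103 with the block. Without D10 replicate 2 it was −2.41 (adjusted p = 0.355, and 0.00776 with the block). The slope lost its call without D0 replicate 2 (edgeR adjusted p = 0.105), without D10 replicate 1 (0.0663) and without D10 replicate 2 (0.0505), and the blocked D10 call was lost without D0 replicate 2 (0.115). Of the exon bases of GDF5, 35.2% lie opposite the antisense gene GDF5OS. Whether counting used strand is not given in the sources used here, so reads of the pair may not have been told apart.

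GDF6 (chr8:96142330-96160792, minus strand), a relative of GDF5 with roles in skeletal patterning, measured 42.9, 32.6, 27.9 and 18.9 CPM in experiment 1. In experiment 2 it measured 33.2, 24.6, 14.9 and 5.28 CPM. Each later day was lower in both experiments, which differed in how far. The D10 log2 fold change of −1.65 ± 0.56 did not pass the test (edgeR adjusted p = 0.395), and within the experiments it was −1.17 and −2.62. With the block it was −1.81 ± 0.32 (edgeR adjusted p = 0.0146). The blocked slope was −0.17 ± 0.03 per day (edgeR adjusted p = 0.0160, against 0.213 without the block). Leaving out single libraries gave blocked slopes of −0.21 to −0.13 per day, and the slope was called in 6 of 8 such fits. Without D10 replicate 2 the D10 change was −1.01 (adjusted p = 0.904), and −1.27 with the block (adjusted p = 0.00313). The blocked D10 call was lost without D0 replicate 2 (edgeR adjusted p = 0.131) and without D7 replicate 2 (0.0510).

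**Figure D2:**
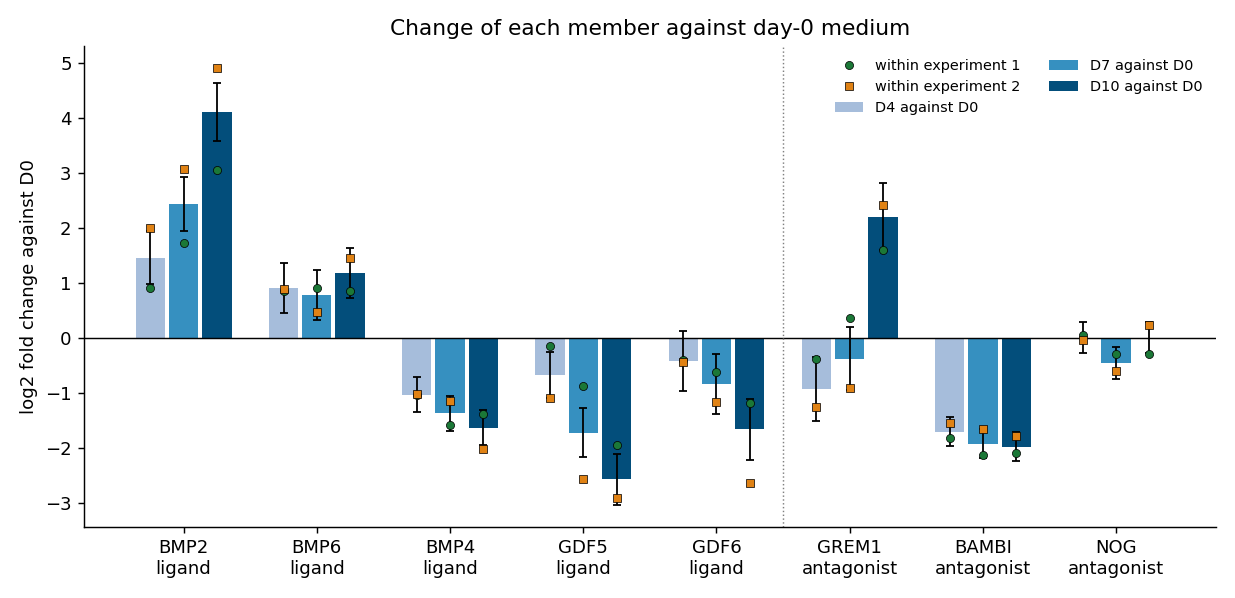
Log2 fold change against D0 at D4, D7 and D10 for each tested member (bars, edgeR fit over 8 libraries; error bars, SE), with circles and squares for the change within experiments 1 and 2. BMP2 reaches 4.11 and GREM1 2.21 at D10, the bars of BMP4, GDF5, GDF6 and BAMBI all lie under 0, and NOG lies near 0.

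Among the antagonists, BAMBI fell early and stayed low. BAMBI (chr10:28677342-28682939, plus strand) is itself induced by BMP and TGF-β signalling in many cells. It measured 63.8 CPM at D0 in experiment 1, followed by 18.1, 14.6 and 14.9 CPM in D4, D7 and D10. In experiment 2 it started at 43.1 CPM and was then at 14.8, 13.7 and 12.4 CPM. The D0 libraries stood far above all others, and the levels at D4, D7 and D10 differed little from each other. The log2 fold change against D0 was −1.70 ± 0.26 for D4 (edgeR adjusted p = 0.723), −1.92 ± 0.27 for D7 (0.251) and −1.97 ± 0.27 for D10 (0.0402), a 3.91-fold lower level on the last day. With the block the adjusted p-values were 0.0136, 0.00568 and 0.000722, and BAMBI was the only member called at D4 in that fit. D10 against D4, a comparison added after the data were seen, gave −0.27 ± 0.26 (edgeR adjusted p = 0.974, and 0.427 with the block).

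The D10 call of BAMBI without the block was lost whichever library was left out (log2 fold change −2.22 to −1.66, edgeR adjusted p 0.0563 to 0.217), and without D10 replicate 2 the change was −1.84 (adjusted p = 0.217). With the block the call remained in 8 of 8 fits, and without D10 replicate 2 the change was −1.99 (adjusted p = 8.8e-05). The slope of BAMBI was −0.20 ± 0.04 per day (edgeR adjusted p = 0.0306) and lost its call without either D0 library (0.141 and 0.105 for replicates 1 and 2), either D7 library (0.0614 and 0.0574) or D10 replicate 2 (0.0661). With the block it was lost without either D0 library (0.0650 and 0.106).

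GREM1 (chr15:32717974-32745107, plus strand), gremlin 1, is a secreted protein that binds BMP2 and BMP4 directly. Experiment 1 gave 148, 113, 190 and 450 CPM at D0, D4, D7 and D10. Experiment 2 gave 312, 131, 166 and 1676 CPM. In both experiments D4 was below the D0 library and D10 was the highest of the series, while D7 was above D0 in experiment 1 and below it in experiment 2. The log2 fold change against D0 was −0.92 ± 0.58 for D4 (edgeR adjusted p = 1.00), −0.37 ± 0.58 for D7 (1.00) and 2.21 ± 0.60 for D10 (0.226), and none passed the test. With the block GREM1 was called at D10, where it was 2.12 ± 0.43 (edgeR adjusted p = 0.0275). This call remained in 5 of 8 fits that left out a library and was lost without D0 replicate 1 (0.157), D0 replicate 2 (0.166) or D4 replicate 2 (0.0506). Without D10 replicate 2 the change was 0.97 (adjusted p = 0.891), and 1.20 with the block (adjusted p = 0.0183).

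NOG (chr17:56593699-56595590, plus strand), noggin, a secreted antagonist encoded by 1 exon, passed no test in any comparison. Its levels were 11.0, 11.6, 9.0 and 9.02 CPM in experiment 1 and 12.1, 11.8, 7.96 and 14.3 CPM in experiment 2. The D7 libraries were below D0 in both experiments, and the D10 libraries lay on either side of it. The largest fitted change was −0.45 ± 0.29 at D7 (edgeR adjusted p = 1.00, and 0.609 with the block), and at D10 it was 0.01 ± 0.29 (adjusted p = 0.998).

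Counted over the set, 2 of the 8 tested members were called at D10 against D0 without the block, where 0.29% of all tested genes (40) were called. These were BMP2 higher, against 0.196% of genes called higher, and BAMBI lower, against 0.0942% called lower. For the slope 4 members were called, against 1.18% of genes, with 1 higher (BMP2; 0.609% of genes) and 3 lower (BMP4, GDF5 and BAMBI; 0.573%). With the block 6 members were called at D10, against 4.99% of genes, with 2 higher (BMP2 and GREM1; 2.54%) and 4 lower (BMP4, GDF5, GDF6 and BAMBI; 2.45%). The blocked slope called 5, against 4.3% of genes, which were the 4 named for the slope and GDF6. At D7 the block called BMP2, BMP4 and BAMBI, against 1.25% of genes, and at D4 it called BAMBI, against 0.275%. For D10 against D4 it called BMP2 and GREM1, both higher, against 2.55% of genes, and edgeR called no member without it, against 0.00725%, whereas DESeq2 called BMP2, GREM1 and GDF5. At D4 or D7 against D0 edgeR without the block called no member and 0 of 13798 genes, although 409 and 599 genes had an unadjusted p under 0.05. DESeq2, run without the filter on low counts, called 44 genes at D4, BAMBI among them. At D7 it called 112, among them BMP2, BMP4 and BAMBI. Libraries of the 2 groups did not overlap for 7 of the 8 members at D4, against 22.3% of genes, for 6 at D7, against 28.9%, and for 7 at D10, against 31.0%. The exception at D10 was NOG. The D10 count over all genes was 0 without either D0 library, 14 or 15 without a D4 or D7 library, 5 without D10 replicate 2 and 153 without D10 replicate 1.

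The question set by the pairing of ligands with antagonists is whether the 2 sides moved alike. The median log2 fold change at D10 was −1.63 over the 5 ligands and 0.01 over the 3 tested antagonists, where the median over all tested genes was 0.00, a difference of −1.64. These medians are the values of BMP4 and NOG, so the difference is that between these genes alone. Within experiments the difference of the medians was −0.89 and −2.25 (SD 0.965, n = 2). Neither side moved as one, since each held a gene that rose and a gene that fell: BMP2 against BMP4 and GDF5, GREM1 against BAMBI. Of the edgeR fits over all libraries, only the blocked one called BMP4, GDF5 and GREM1 at D10. Without D10 replicate 2 the difference was −0.65, and the same value was reached without the filter on low counts, which brings in a fitted change of CHRDL1, a gene at or under the floor, so that this value is not a measured balance of the members. No test was made over the members.

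Summed per kb of exon over the 5 ligands of the set, ligand RNA was lower at D4 and D7 than at D0. The D10 libraries lay on either side of D0. In experiment 1 the ligand sum over D0, D4, D7 and D10 was 81.4, 51.2, 45.6 and 66.4 CPM per kb, and in experiment 2 it was 67.2, 46.2, 52.7 and 101.7. The antagonist sum over the same days was 43.5, 21.7, 24.1 and 42.0 in experiment 1 and 46.4, 21.6, 21.5 and 127.7 in experiment 2. The ratio of ligands to antagonists was 1.87, 2.36, 1.89 and 1.58 in experiment 1 and 1.45, 2.14, 2.45 and 0.796 in experiment 2. Both D4 libraries and both D7 libraries had a higher ratio than either D0 library, and within both experiments the D10 ratio was below that at D0. In experiment 1 the higher ratio at D4 and D7 depended on counting BAMBI, which is not secreted. With BAMBI left out of the antagonist sum, the ratio was 5.10, 3.70, 2.56 and 1.87 in experiment 1. In experiment 2 it was then 2.42, 3.04, 3.37 and 0.831, so D4 and D7 were still above the D0 library of that experiment. No D4 or D7 library was above both D0 libraries. These ratios were not tested.

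What the sums hide is the exchange of members within them. BMP4 made up 76.3% and 75.4% of the ligand sum at D0 and 36.1% and 12.4% at D10. The BMP2 share over the 4 days was 5.11%, 15.4%, 30.6% and 52.5% in experiment 1 and 4.14%, 24.4%, 45.4% and 83.8% in experiment 2. The ratio of BMP4 to BMP2 went from 14.9 and 18.2 at D0 to 0.687 and 0.148 at D10, falling at each day in both experiments. On the antagonist side BAMBI went from 63.3% and 40.1% to 15.3% and 4.21%, and GREM1 from 23.2% and 46.0% to 73.4% and 89.9%. The GREM1 share rests on an exon length of 14606 bases and would be larger with a shorter annotated transcript. At D10 the ratio of GREM1 to BMP2 per kb was 0.884 and 1.35, against 2.43 and 7.67 at D0.

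**Figure D3:**
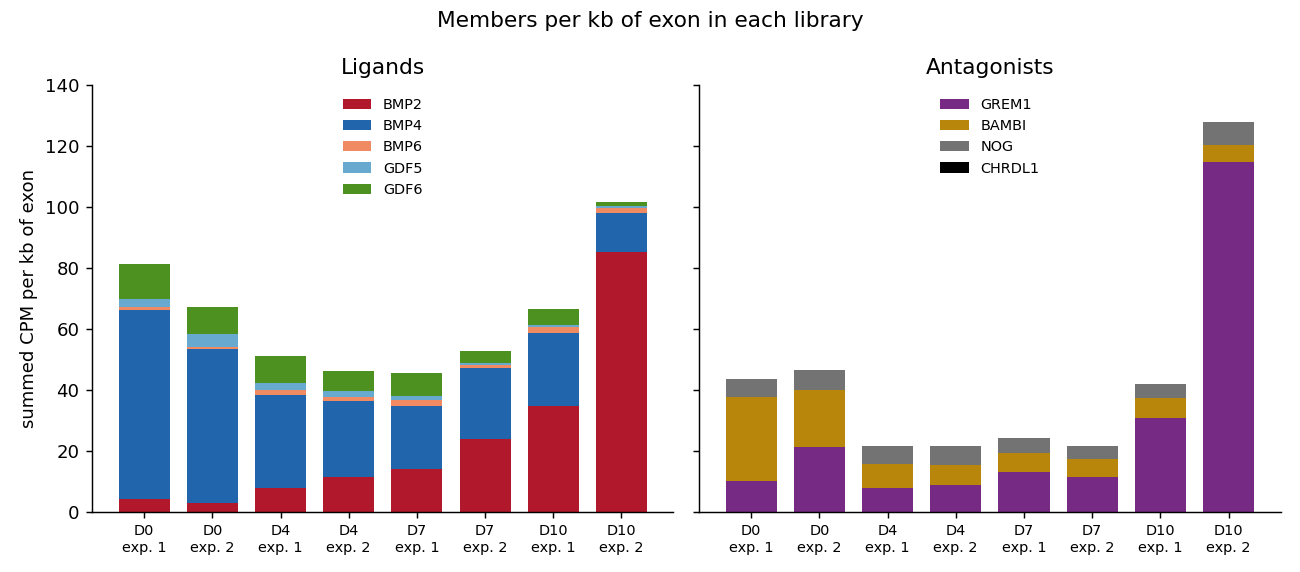
Stacked CPM per kb of exon of the 5 ligands (left) and the 4 antagonists (right) in each of the 8 libraries (exp., experiment). BMP4 fills most of the ligand bar at D0 and BMP2 most of it at D10, and GREM1 takes over the antagonist bar, which reaches 127.7 in D10 replicate 2 and 42.0 in D10 replicate 1.

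The members' profiles over the 8 libraries were compared as a description, since all points share the same time course and libraries. Pearson's r of log2 CPM was −0.96 between BMP2 and GDF5 and −0.91 between BMP2 and BMP4 (n = 8 libraries). BMP4 and BAMBI ran together at 0.93. For GREM1 the value farthest from 0 was with GDF6, at −0.81, and reached 0.66 with BMP2. NOG was weakly related to all others, with values between −0.23 and 0.42. Over all tested genes, the profiles most like that of BMP2 were DLG4 (0.985) and NPAS2 (0.981), and those most like GREM1 were TNFRSF11B (0.984), which encodes the decoy receptor osteoprotegerin, and TRABD2A (0.977). The nearest to BMP4 were TMEM52B (0.988) and PMP22 (0.987), and to BAMBI WARS (0.985) and SDC2 (0.971). GDF5 was nearest to C11orf87 (0.976) and LSR (0.970), GDF6 to BST1 (0.994) and SLC6A17 (0.992), BMP6 to PNP (0.990) and MAP2K1 (0.967), and NOG to PTGES3L (0.968) and ELP4 (0.946). With 13798 genes compared over 8 libraries, values of this size are found for every member.

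The rest of the pathway was read from lists of genes by role. Of 16 other BMP and GDF ligands, 12 were in the table and 2 could be tested. GDF11 ranged from 65.2 to 115 CPM, with a D10 log2 fold change of 0.03. GDF15, a distant stress-responsive relative that signals through GFRAL, was at 71.4 to 96.6 CPM in the 6 libraries of D0, D4 and D7, and at 134 and 1672 CPM at D10. Its log2 fold change of 3.56 ± 0.95 did not pass the test (edgeR adjusted p = 0.209, and 0.0789 with the block) and was 0.82 and 4.44 within the experiments. BMP7 had at most 5 counts in a library and was not tested.

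Other extracellular antagonists and modulators, of which 10 of 13 in the table were tested, held 1 gene called higher in the blocked fit. SMOC1, a secreted matricellular protein known to restrain BMP signalling, stayed between 2.01 and 5.19 CPM at D0, D4 and D7 and reached 15.0 and 83.8 CPM at D10 (log2 fold change 4.36 ± 0.81, edgeR adjusted p = 0.0810, and 0.0152 with the block). Within experiments 1 and 2 the D10 change was 2.81 and 4.85, and without D10 replicate 2 it was 2.65 (edgeR adjusted p = 0.217), and 2.42 with the block (adjusted p = 0.00134). The blocked D10 call was lost without D0 replicate 1 (0.0613) or D0 replicate 2 (0.168). D10 against D4 was 4.03 (edgeR adjusted p = 0.247, and 0.0350 with the block). Its slope of 0.45 ± 0.10 per day was called with the block alone (edgeR adjusted p = 0.0308, against 0.0621 without it), and without D10 replicate 2 the slope was 0.23 (adjusted p = 0.113), and 0.21 with the block (edgeR adjusted p = 0.0444). The blocked slope lost its call in 5 of 8 fits that left out a library, namely D0 replicate 2 (0.140), D4 replicate 1 (0.0733), D4 replicate 2 (0.0563), D7 replicate 1 (0.0541) or D10 replicate 1 (0.0974). FSTL1 and CRIM1, the most abundant of the list per kb, had D10 log2 fold changes of −0.66 ± 0.31 and −0.56 ± 0.31, and none of these 10 genes was called lower in either fit. Their median at D10 was −0.42.

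Of the 9 tested receptors and co-receptors, the block called 1 at D10 and the fit without it called none. ACVRL1, a type I receptor best known in endothelial cells, measured 15.2, 33.3, 38.3 and 51.2 CPM over the 4 days in experiment 1 and 8.87, 23.6, 38.8 and 18.4 CPM in experiment 2 (log2 fold change 1.54 ± 0.48, edgeR adjusted p = 0.325, and 0.0311 with the block; 0.0383 with the block at D7). Its D10 change was 2.09 without D10 replicate 2 (edgeR adjusted p = 0.177), and 1.93 with the block (adjusted p = 0.000131). The blocked D10 call was lost without D0 replicate 1 (0.135), D0 replicate 2 (0.249), D4 replicate 1 (0.0556) or D4 replicate 2 (0.0616), and without D10 replicate 1 the change was 0.86 (0.0305). Endothelial markers stayed under 3.74 CPM in sum in every library, and their part in the ACVRL1 change was not tested. The co-receptors ENG and RGMB, the most abundant of this list per kb, had D10 log2 fold changes of −0.22 ± 0.48 and 0.60 ± 0.39 and passed no test; RGMB shares 45.6% of its exon bases with genes on the opposite strand. The median over the receptors was −0.02.

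Among 10 tested signal transducers and inhibitors, SMAD1 was the only one called in either fit, and it rose. It measured 7.62, 10.9, 20.3 and 27.6 CPM in experiment 1 and 12.1, 16.5, 21.8 and 30.5 CPM in experiment 2, climbing at each day in both. Its slope was 0.16 ± 0.03 per day (edgeR adjusted p = 0.0201) and its D10 log2 fold change 1.56 ± 0.31 (adjusted p = 0.0923, and 0.00370 with the block). The D10 change was 1.48 without D10 replicate 2 (edgeR adjusted p = 0.346), and 1.72 with the block (adjusted p = 0.000446), where the call remained in 8 of 8 fits. The block also called it at D7 (1.12, edgeR adjusted p = 0.0401, against 0.607 without it) and for D10 against D4 (1.11, 0.0264 against 0.474). The slope lost its call without D0 replicate 1 (0.107), D10 replicate 1 (0.0654) or D10 replicate 2 (0.0586). The ubiquitin ligase SMURF2 and the co-repressor SKI, the most abundant of the list, had D10 log2 fold changes of 0.20 ± 0.25 and −0.17 ± 0.25. The list's median was 0.09. At D10 the libraries of 3 of these 10 genes, SMAD1 among them, lay above both D0 libraries, and those of 1 lay below both. Libraries did not overlap at D10 for 31.0% of all tested genes.

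BMP target genes did not move in 1 direction. Of 10 tested, BAMBI was the only one called at D10 without the block. ID2, a helix-loop-helix inhibitor, was at 24.2 and 26.1 CPM at D0 and at 7.51 and 5.12 CPM at D10 (log2 fold change −1.99 ± 0.48, edgeR adjusted p = 0.155, and 0.0241 with the block). This was −1.74 without D10 replicate 2 (edgeR adjusted p = 0.670), and −1.41 with the block (adjusted p = 0.0214). The blocked D10 call was lost without D0 replicate 1 (0.139), D0 replicate 2 (0.0923) or D4 replicate 2 (0.0510). The ID2 slope was −0.18 ± 0.04 per day (edgeR adjusted p = 0.0916, and 0.0270 with the block). Its blocked call was lost without D0 replicate 1 (0.168), D0 replicate 2 (0.126), D7 replicate 1 (0.0565) or D10 replicate 1 (0.0624). ID3, of the same family, was at 29.5 and 16.6 CPM at D0 and at 85.0 and 36.7 CPM at D10. Its D10 log2 fold change of 1.40 ± 0.48 was not called (adjusted p = 0.405, and 0.0793 with the block), but its slope of 0.14 ± 0.04 per day was called with the block (edgeR adjusted p = 0.0448, against 0.168 without it). That call was lost without D0 replicate 1 (0.113), D0 replicate 2 (0.238), D4 replicate 1 (0.0830), D4 replicate 2 (0.0753) or D10 replicate 1 (0.268). The median of the target list was −0.17, beside 0.00 over all genes. Of 4 tested proteases that act on BMPs or chordin, none was called at D10 in either fit, and FURIN and BMP1, the most abundant, had log2 fold changes of 0.14 ± 0.37 and −0.20 ± 0.31.

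**Figure D4:**
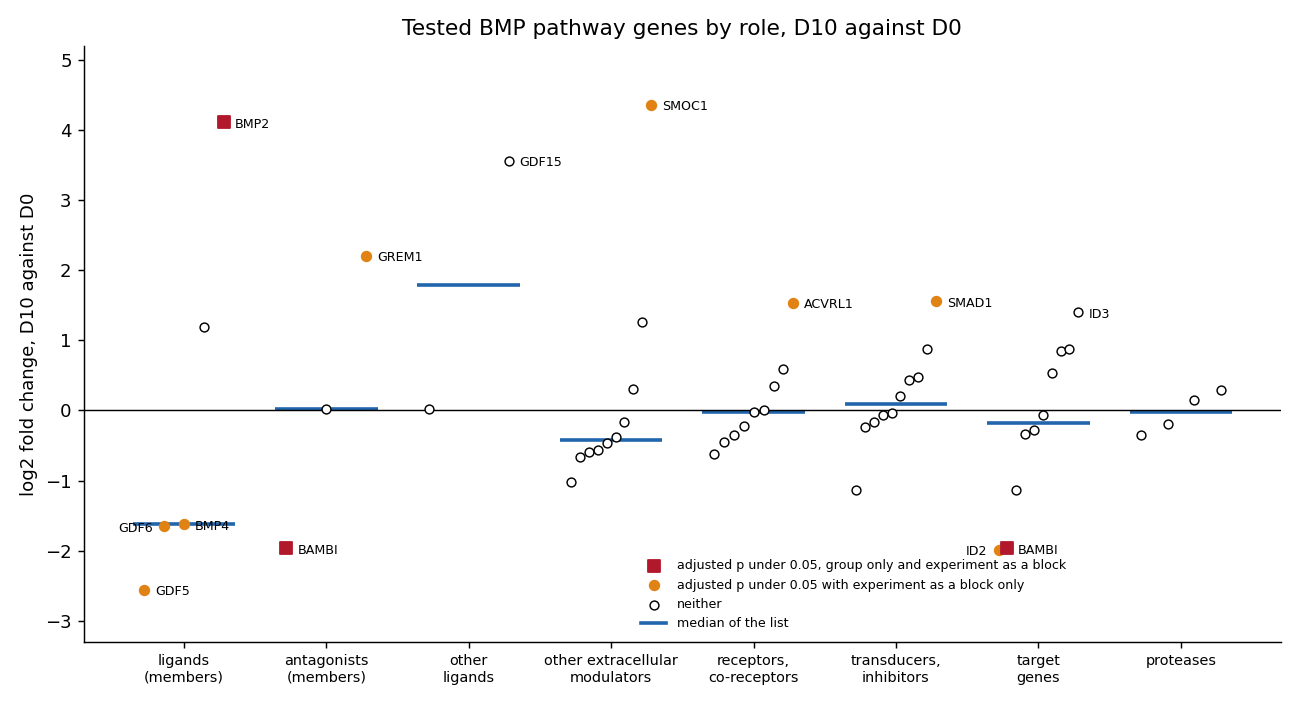
Fitted log2 fold change at D10 against D0 of every tested gene of the member sets and pathway lists, by role (1 point a gene; blue line, median of the list; BAMBI stands in 2 columns). Red squares were called with and without the experiment as a block, orange circles with the block alone. GREM1 (2.21) and SMOC1 (4.36) lie on the same side as BMP2 (4.11), and most receptors, transducers and proteases lie near 0.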

How the data were processed

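The recipient IMR90 libraries were prepared from poly(A) RNA with Illumina's stranded TruSeq kit, per the labels. The submitters' processing notes name STAR 2.5, DESeq2 and GRCh38; the counter, the annotation and the strand setting are not given in the sources used here. The authors deposited raw counts per gene and, beside them, RPM values, which equal the counts scaled to the library total within 0.01 RPM and were not used further. Groups and replicate numbers came from the labels; 1 column header reads DO and was taken as D0. The 9 members and the pathway lists were chosen with earlier results of these data known. In addition, 1 gene of the list of other antagonists and modulators is not reported here and was left out of its counts and median. Named genes are the members, list genes called in any of the comparisons with or without the block, the 2 most abundant per kb at D0 of each list, and the 2 genes with the profile most like each member. Low counts were removed with filterByExpr and TMM factors set the library sizes. A quasi-likelihood model (edgeR 4.0.16 in R 4.3.3) with 1 coefficient per group, or with the day as a number for the slope, used the 8 libraries together. Adjustment over 13798 genes followed Benjamini and Hochberg, and calls were made at 0.05. CPM are counts over TMM-scaled totals, log2 CPM used a prior count of 2, and levels per kb used the union of exons in GENCODE 29, which holds 99.6% of the gene identifiers. The labels name independent experiments, and libraries with the same replicate number deviated together from their groups (r over genes, 0.418 to 0.722 in the 6 group pairs), so the numbers pair the libraries. The experiment was therefore also fitted as a replicate block, and its value is given beside the results of the members and named genes. An exact permutation test of 2 against 2 libraries cannot go below p = 0.3333 and was not used. The alternatives tried were the size factors of DESeq2, DESeq2 1.42.0 as the test, all genes without a filter, a minimum of 10 counts per library, fits to only the groups compared, a stricter adjusted p of 0.01 and the removal of 1 library at a time. DESeq2 as the test was run without filterByExpr, and its own default independent filtering was left on. Removing libraries from the blocked fit, for members and named genes, and comparing D10 with D4 were chosen after seeing the data. Total counts ranged from 11708193 to 13395912, and the floor of 3 counts covers counting error only. Errors printed are SDs between libraries or SEs of the edgeR fit, with a dispersion estimated between libraries. The scripts were tested on simulated data. Figures were drawn with Python 3.11.15 and matplotlib 3.10.9.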

Additional observations from a re-analysis of the deposited data

Results flagged for a closer look

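GREM1 lay on opposite sides of its D0 level at 2 days of the medium. In both experiments its D4 library was below the D0 library (log2 change −0.38 and −1.26 in experiments 1 and 2) and its D10 library was above it (1.61 and 2.42). The D10 change minus the D4 change was 3.12 ± 0.63 on the log2 scale. Tested as D10 against D4, a comparison added after the data were seen, it had an edgeR adjusted p of 0.254, and 0.0178 with the experiment as a block, where 0.00725% and 2.55% of all tested genes were called. Leaving out single libraries gave 1.88 to 3.80. BMP2, which was higher at both days, differed between them by 2.65 (edgeR adjusted p = 0.230, and 0.0117 with the block). D10 against D4 does not test whether GREM1 at D4 lay below D0. That D4 change was −0.92 ± 0.58 and was not called in either fit (edgeR adjusted p = 0.730 with the block). Without D0 replicate 2 it was −0.28.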

How the results depend on the processing

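The scale of the calls depended on the model and the filter more than on the normalization. DESeq2 was run without the filter on low counts, so its counts of calls do not show the effect of the test alone. The number of genes called at D4, 0 in the fit by group, was 44 with DESeq2, 21 without a filter and 38 with the replicate block. At D7 it was 0, and 112, 93 and 172 in the same 3 settings. At D10 it was 40, and 379 with DESeq2, 371 without a filter, 20 with at least 10 counts in every library, 688 with the replicate block, 0 with the compared groups only and 2 at an adjusted p under 0.01. For the slope it was 163, and 488 with DESeq2, 593 with the replicate block and 39 at an adjusted p under 0.01. For D10 against D4 it was 1, and 6 with DESeq2's size factors, 149 with DESeq2, 147 without a filter, 352 with the replicate block and 6 with the compared groups only. Leaving out single libraries gave 0 to 153 genes at D10, 0 to 86 for D10 against D4 and 32 to 151 for the slope. The ligand median minus the antagonist median, −1.64, was −0.65 without the filter and −2.47 to −0.65 when single libraries were left out. Among the members, directions changed for GREM1 at D7 (−0.81 to 0.27 when libraries were left out) and for NOG, whose fitted changes lay near 0. NOG ranged from −0.049 to 0.077 at D4, from −0.36 to 0.34 at D10 (with the block also −0.36 to 0.34), from −0.37 to 0.31 for D10 against D4 and from −0.049 to 0.0019 per day (−0.050 to −0.0030 with the block). For D10 against D4, NOG was 0.0024, and −0.0081 with DESeq2's size factors, −0.010 with DESeq2 and −0.012 with the replicate block. The cause was not tested. With the compared groups only, BMP2 and BAMBI lost their D10 calls (edgeR adjusted p = 0.110 and 0.144). DESeq2 also called BMP4, GDF5 and GREM1 at D10 (adjusted p = 0.00075, 0.000285 and 0.00307), and GDF6 was not called (0.0928). It called BAMBI at D4 (DESeq2 adjusted p = 0.000761), BMP2, BMP4 and BAMBI at D7 (0.000124, 0.0256 and 1.42e-05), BMP2, GREM1 and GDF5 for D10 against D4 (7.51e-06, 3.19e-06 and 0.0458) and, for the slope, GDF6 (0.0473) beside the 4 members that edgeR called. Other than where a value with the block is printed, the block changed no call of a member. With 2 libraries a group the tests rest on a spread shared across groups, and BMP6, GDF5 and CHRDL1 had at most 151 counts, so small changes in them were not detectable at this depth.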
